A study of Mus musculus with 8 samples.

Results

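The genes of amino acid synthesis, amino acid transport and tRNA charging were examined in mouse embryonic stem cells in which GSK3α or GSK3β could be inhibited separately. The set was a fixed list of 37 gene symbols, and a member had to have a value in all 8 libraries and a mean value of at least 1. All 37 met this rule, out of 13959 genes that met the same rule in the whole table. By function 14 belonged to synthesis, 10 to transport and 13 to tRNA charging.

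RNA came from 2 transgenic E14 lines of the strain 129/Ola. The GSK3α line lacked its own GSK3α and carried the mutant GSK3alpha-L195G, and the GSK3β line lacked its own GSK3β and carried GSK3Beta-L132G. These mutations make a kinase sensitive to bulky ATP analogs such as 3MB-PP1. After 6 h of serum starvation in N2B27 medium, cells of both lines received 5 µM 3MB-PP1 for 2 h or no treatment, with 2 libraries in each of the 4 groups. Each paralog is represented by 1 line, no change to the other paralog is stated, no vehicle is stated for untreated cells, and there is no line without a mutant kinase, so that an action of 3MB-PP1 on other targets cannot be told apart from inhibition of GSK3. Nothing states that the libraries of a group came from separate cultures, and the p-values then measure the spread between these libraries only.

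Cells adjust their supply of amino acids through a pathway in which uncharged tRNA activates the kinase GCN2, which phosphorylates the initiation factor eIF2α. Translation in general then falls, while that of the transcription factor ATF4 rises. ATF4 pairs with C/EBP proteins at a composite site, the C/EBP-ATF response element, and raises the transcription of enzymes that make asparagine, serine, glycine and proline, of transporters that import amino acids, and of many aminoacyl-tRNA synthetases, which join each amino acid to its tRNA. Mouse embryonic stem cells are known for a high demand for amino acids, and for threonine in particular.

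Gsk3a had 155 and 160.0 untreated and 141 and 142 with inhibitor in the GSK3α line and 77.9 and 76.2 untreated and 77.6 and 79.9 with inhibitor in the GSK3β line. Gsk3b had 58.2 and 54.7 untreated and 52.7 and 55.3 with inhibitor in the GSK3α line and 235 and 256 untreated and 258 and 249 with inhibitor in the GSK3β line. Each line thus had more RNA of the paralog it carried as a mutant transgene, whose reads cannot be told apart here from those of the disrupted gene. Depth was estimated at 21.5 to 32.4 M gene reads per library. Values are the deposited scaled gene counts, changes are differences of log2(value + 1), and a gene passed at an adjusted p below 0.05. Within a group, log2 values of the libraries differed with an SD of 0.118 to 0.143 over all tested genes. The 8 stem cell markers checked, among them Pou5f1 and Nanog, summed to 6176 to 6368 in every library. Of 8 fibroblast markers 3 had values (sum of 9.34 to 14.01), of 8 trophoblast markers 7 (20.6 to 29.0), of 8 primitive endoderm markers 7 (28.5 to 42.7) and of 8 neural markers 7 (153 to 234). Col3a1, Dcn, Lum, Postn and Fap, Elf5, Foxa2 and Dcx were the markers with no value in any library. Of the markers with values, the neural markers Tubb3 (log2 0.52) and Nes (0.51) and the primitive endoderm marker Lama1 (0.56) rose with 3MB-PP1 in the GSK3β line beside the genes described here, the neural marker Neurod1 fell (-0.46), and the neural sum went from 166 and 176 to 226 and 234. That sum was carried by Tubb3 and Nes, and the median change of the 7 neural markers was -0.18. The trophoblast marker Cdx2, whose mean was too low for the test, had 0.195 and 0.321 untreated and 2.43 and 3.27 with inhibitor in the GSK3β line and 0.4 and 0.298 untreated and 0.515 and 0.507 with inhibitor in the GSK3α line, and the trophoblast sum of the GSK3β line was 22.6 and 23.3 untreated and 26.4 and 29.0 with inhibitor. Nanog (0.14) and Esrrb (0.22) rose there and Tdgf1 (-0.24) and Utf1 (-0.20) fell. The part of these changes in the results was not tested, and fewer cells of a type and less RNA per cell cannot be told apart in bulk RNA.

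The start regions of members that rose together in the GSK3β line are shown first, because several carry the letters of the C/EBP-ATF response element. Each stretch runs from 200 bases before the RefSeq transcription start to the first 20 transcribed bases, on build GRCm38.p6, the assembly known as mm10, and is written 5′ to 3′ along the gene. Capitals mark TGATGNAA or, on the opposite strand, its complement TTNCATCA.
Slc1a4, a transporter of neutral amino acids (chr11:20332694-20332913, minus strand): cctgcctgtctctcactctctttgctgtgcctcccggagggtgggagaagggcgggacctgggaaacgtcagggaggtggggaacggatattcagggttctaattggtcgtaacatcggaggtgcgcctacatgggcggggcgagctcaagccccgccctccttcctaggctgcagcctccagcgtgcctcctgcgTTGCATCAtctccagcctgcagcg
Asns, asparagine synthetase (chr6:7693190-7693409, minus strand): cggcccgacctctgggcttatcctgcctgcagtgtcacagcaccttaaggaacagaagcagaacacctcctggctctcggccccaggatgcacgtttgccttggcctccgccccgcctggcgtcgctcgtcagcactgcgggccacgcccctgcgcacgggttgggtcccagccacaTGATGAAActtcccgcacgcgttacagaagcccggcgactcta
Aars, alanyl-tRNA synthetase (chr8:111033642-111033861, plus strand): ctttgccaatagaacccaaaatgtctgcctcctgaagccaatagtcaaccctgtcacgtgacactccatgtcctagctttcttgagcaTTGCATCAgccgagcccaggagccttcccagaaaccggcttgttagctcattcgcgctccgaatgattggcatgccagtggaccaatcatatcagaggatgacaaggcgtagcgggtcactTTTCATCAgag
Iars, isoleucyl-tRNA synthetase (chr13:49681930-49682149, plus strand): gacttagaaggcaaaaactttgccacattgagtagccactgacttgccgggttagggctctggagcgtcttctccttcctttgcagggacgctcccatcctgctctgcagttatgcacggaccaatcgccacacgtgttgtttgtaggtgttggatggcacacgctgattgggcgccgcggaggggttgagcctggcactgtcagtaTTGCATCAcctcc
Got1, cytosolic aspartate aminotransferase (chr19:43524586-43524805, minus strand): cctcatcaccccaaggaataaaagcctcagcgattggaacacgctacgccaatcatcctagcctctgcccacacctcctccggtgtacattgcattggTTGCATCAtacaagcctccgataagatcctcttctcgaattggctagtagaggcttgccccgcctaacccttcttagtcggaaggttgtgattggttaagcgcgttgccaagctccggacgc
Full windows in the RefSeq table, 250 bases before to 50 after the start, matched 27 of the 37 members by symbol. The motif, searched on both strands, was found in 9 of them (33.3%), against 1219 of 27025 genes in that table (4.51%) and 262 of the 10126 genes that were tested and matched (2.59%). Beside the 5 genes shown these were Pycr1, Tars, Yars and Gars. All 9 were among the 21 matched members that rose in the GSK3β line, and 12 of those 21 had no motif. There was none in the 5 matched members that did not pass or in the 1 that fell, Slc38a2. Cth and Slc7a3, which also fell, and Slc38a1 and Wars, which did not pass, had no window in that table and were not searched. By class the motif was present in 5 of 8 tRNA charging, 3 of 13 synthesis and 1 of 6 transport members. Aars had 2 matches, 1 of them within the first transcribed bases, where the matches of Iars and Yars also lay. These are matches of letters and not bound sites, and the members were chosen with results of these data known.

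Most of these genes were modestly higher after 3MB-PP1 in the GSK3β line, while in the GSK3α line nearly all had changes that did not pass. The Benjamini-Hochberg adjustment was made within each comparison, and 123 genes passed in the GSK3α line against 2084 in the GSK3β line. A change of similar size and SE could thus pass in the GSK3β line only, so counts of the lines do not share a cutoff. Phgdh, for instance, had 0.16 in the GSK3α line (limma, adjusted p = 0.0547) and 0.17 in the GSK3β line (0.00404). In the GSK3β line 27 of 37 members rose and 3 fell, beside 7.49% of all tested genes that rose and 7.44% that fell. The median log2 change of the members was 0.19, against -0.01 over all tested genes. In the GSK3α line 1 of 37 rose and none fell (limma with Benjamini-Hochberg adjustment), beside 0.265% of all genes higher and 0.616% lower. The median of the members was 0.04 in that line, and 0.01 over all genes. At a minimum mean of 10, or without either untreated library of the GSK3β line, it was 2 of the members, and the count was 0 when any library of the GSK3α line was left out, or either inhibitor library of the GSK3β line. Without inhibitor replicate 1 of the GSK3β line the count of 27 was 18. The change of 28 members was positive in the GSK3α line, beside 53.6% of all genes, and for 19 both inhibitor libraries lay above both untreated ones, which was so for 23.0% of all tested genes. The same held for 31 members in the GSK3β line, against 27.3% of all genes, and 4 members, among them Cbs, had both inhibitor libraries below both untreated ones there, against 30.0% of all genes.

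**Figure D1:**
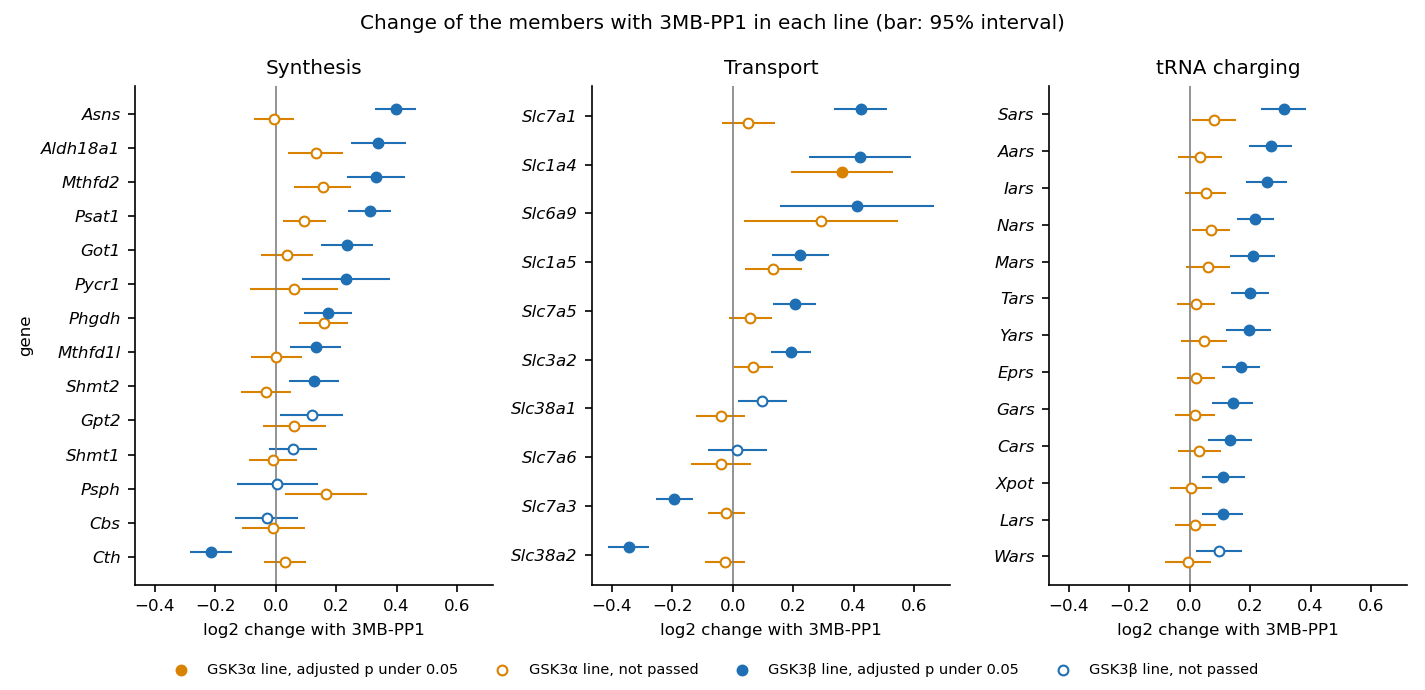
Log2 change with 3MB-PP1 (x axis) of each member (y axis), by class, in the GSK3α line (orange) and the GSK3β line (blue), with bars for the 95% interval of the limma fit, which is not adjusted for the number of genes, and filled points past the adjusted threshold. All 13 tRNA charging genes lie to the right of 0 in the GSK3β line, and Cth, Slc7a3 and Slc38a2 are the members that fell there.

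The classes differed more in spread than in their middle. The median log2 change in the GSK3β line was 0.15 for synthesis, 0.20 for transport and 0.20 for tRNA charging. The share that rose was 9 of 14, 6 of 10 and 12 of 13, beside 7.49% of all tested genes. On the log2(value + 1) scale, transport held both the largest rise and the largest fall among the members, from -0.34 to 0.42, with an SD over its genes of 0.26. Synthesis ran from -0.21 to 0.40, with an SD of 0.17. The tRNA charging genes kept close together, from 0.10 to 0.31, with an SD of 0.07. The 11 further cytosolic synthetases described below had an SD of 0.04. The SE was larger for transporters with low values, 0.12 for Slc6a9 and 0.08 for Slc1a4. It was 0.03 for Slc38a2 and 0.04 for Slc7a1, which held the ends of the transport range. The part of this in the spread was not tested. In the GSK3α line the medians were 0.05, 0.06 and 0.03, and that of tRNA charging was 0.065 without untreated replicate 2 and 0.021 without untreated replicate 1 of that line. No test of one class against another was made.

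Among the enzymes of synthesis, those that make asparagine, serine, proline and mitochondrial folate intermediates rose in the GSK3β line. Asns, which makes asparagine from aspartate and glutamine (chromosome 6, 7675165 to 7693209), had 302 and 310.0 untreated and 414 and 393 with inhibitor in that line. Both inhibitor libraries lay above both untreated ones, a log2 change of 0.40 ± 0.03 (SE, adjusted p = 5.76e-08) or 31.8% more. Asns libraries of the GSK3α line had 394 and 407 untreated and 404 and 394 with inhibitor, and there the groups overlapped (log2 -0.01, 95% interval -0.07 to 0.06). Psat1, the aminotransferase of serine synthesis, had 229 and 239 untreated and 296 and 284 with inhibitor in the GSK3β line (log2 0.31 ± 0.03, adjusted p = 2.55e-06). It had 196 and 199.99 untreated and 216 and 208 with inhibitor in the GSK3α line, where the groups did not overlap but the change of 0.09 did not pass (adjusted p = 0.239).

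Phgdh, which catalyses the first step of serine synthesis, had nearly the same log2 change in both lines. It had 81.9 and 85.1 untreated and 96.1 and 92.4 with inhibitor in the GSK3β line (log2 0.17, adjusted p = 0.00404) and 61.0 and 61.9 untreated and 68.3 and 69.1 with inhibitor in the GSK3α line (log2 0.16, adjusted p = 0.0547, not passed). Psph, the phosphatase that completes the pathway, did not pass in either line (log2 0.01 and 0.17). Of the 3 serine enzymes, Psat1 and Phgdh thus passed in the GSK3β line and none in the GSK3α line.

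Aldh18a1 and Pycr1 act at the beginning and the end of proline synthesis. Aldh18a1 had 49.3 and 53.1 untreated and 64.8 and 65.2 with inhibitor in the GSK3β line (log2 0.34 ± 0.04, adjusted p = 1.78e-05) and 66.5 and 67.2 untreated and 71.6 and 75.2 with inhibitor in the GSK3α line (log2 0.13, adjusted p = 0.2). Pycr1 rose in the GSK3β line by a log2 of 0.23 (adjusted p = 0.0303) and had 0.06 in the GSK3α line. Mthfd2, a mitochondrial enzyme of folate metabolism, had 51.0 and 55.0 untreated and 68.7 and 65.1 with inhibitor in the GSK3β line (log2 0.33 ± 0.05, adjusted p = 4.87e-05). The GSK3α line had Mthfd2 values of 43.2 and 42.6 untreated and 48.4 and 47.4 with inhibitor, groups that did not overlap, with a change that did not pass (log2 0.16, adjusted p = 0.142). Its mitochondrial partners Mthfd1l (log2 0.13) and Shmt2 (0.13) rose by less in the GSK3β line, while the cytosolic Shmt1 did not pass (0.06).

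Of the transaminases, Got1 had 121 and 125 untreated and 153 and 138 with inhibitor in the GSK3β line (log2 0.23 ± 0.04, adjusted p = 0.000552), and Gpt2, the mitochondrial alanine aminotransferase, did not pass (log2 0.12, adjusted p = 0.117). The transsulfuration enzymes, which make cysteine from homocysteine, did not share the rise. Cth, the second of them, had 130.2 and 130.4 untreated and 111 and 114 with inhibitor in the GSK3β line, with both inhibitor libraries below both untreated ones (log2 -0.21 ± 0.03, adjusted p = 0.00016). The GSK3α line had 101 and 103 untreated and 105 and 104 with inhibitor (log2 0.03). Cbs, the first, did not pass in either line (log2 -0.03 and -0.01). For the GSK3β line, the calls of Phgdh, Shmt2, Mthfd1l and Pycr1 ended without inhibitor replicate 1 (log2 0.10 to 0.16, adjusted p 0.0984 to 0.361). Those of Shmt2, Mthfd1l and Pycr1 also ended without untreated replicate 1 (adjusted p 0.122 to 0.171), those of Shmt2 and Pycr1 without untreated replicate 2 (0.0622 and 0.0632), that of Mthfd1l without inhibitor replicate 2 (0.0642) and that of Shmt2 without either inhibitor library of the GSK3α line (0.0562 and 0.0566).

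Among the transporters, carriers of neutral and cationic amino acids rose in the GSK3β line while Slc7a3 and Slc38a2 fell. Slc7a1, a widely expressed carrier of arginine and lysine (chromosome 5, 148327410 to 148399904), had 110.0 and 122 untreated and 159 and 152 with inhibitor in that line (log2 0.42 ± 0.04, adjusted p = 8.77e-07), a rise of 34.3%. The GSK3α line had 109 and 113 untreated and 114 and 116 with inhibitor (log2 0.05, adjusted p = 0.675). Slc7a3, a further carrier of cationic amino acids, went the other way in the GSK3β line, with 485 and 482 untreated and 416 and 429.7 with inhibitor (log2 -0.19 ± 0.03, adjusted p = 0.000145). The GSK3α line had Slc7a3 values of 261 and 267 untreated and 262 and 258 with inhibitor (log2 -0.02). The 2 cationic carriers therefore moved in opposite directions within the GSK3β line.

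Slc1a4, which exchanges alanine, serine, cysteine and threonine, was the member that rose in both lines. It had 8.76 and 8.51 untreated and 11.5 and 11.3 with inhibitor in the GSK3α line, groups that did not overlap (log2 0.36 ± 0.08, adjusted p = 0.0365). In the GSK3β line it had 12.2 and 14.3 untreated and 17.6 and 18.4 with inhibitor (log2 0.42 ± 0.08, adjusted p = 0.00118). Its call in the GSK3α line was lost whichever library of that line was left out (log2 0.34 to 0.38, adjusted p from 0.110 to 0.362). Leaving out an inhibitor library of the GSK3β line, from which the spread is also estimated, gave 0.0583 or 0.0594. Slc6a9, a glycine transporter with low values, had 4.53 and 5.03 untreated and 6.58 and 6.79 with inhibitor in the GSK3β line (log2 0.41 ± 0.12, adjusted p = 0.0279) and 3.24 and 4.50 untreated and 5.34 and 4.52 with inhibitor in the GSK3α line (log2 0.29, adjusted p = 0.336). Its call in the GSK3β line ended without untreated replicate 1 (adjusted p = 0.174) or either inhibitor replicate of that line (0.123 and 0.129).

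Slc3a2 encodes the heavy chain that carries Slc7a5, a transporter of large neutral amino acids, to the membrane. The pair rose by similar amounts in the GSK3β line, Slc3a2 by a log2 of 0.19 (adjusted p = 0.000234) and Slc7a5 by 0.21 (adjusted p = 0.000286). Slc7a6, another partner of the same heavy chain, did not pass (log2 0.02). The glutamine carrier Slc1a5 had 44.6 and 46.5 untreated and 53.6 and 53.1 with inhibitor in the GSK3β line (log2 0.22 ± 0.05, adjusted p = 0.00209) and 37.8 and 38.2 untreated and 40.5 and 43.2 with inhibitor in the GSK3α line, where its change did not pass (log2 0.14, adjusted p = 0.217). Slc38a2, a sodium-coupled carrier of neutral amino acids, is known to be induced when amino acids are scarce. It had 325 and 308 untreated and 249 and 249 with inhibitor in the GSK3β line, the largest fall of any member there (log2 -0.34 ± 0.03, adjusted p = 4.05e-07). In the GSK3α line its libraries stood at 322 and 333 untreated and 324 and 319.6 with inhibitor (log2 -0.03), and its relative Slc38a1 did not pass in the GSK3β or the GSK3α line (log2 0.10 and -0.04).

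**Figure D2:**
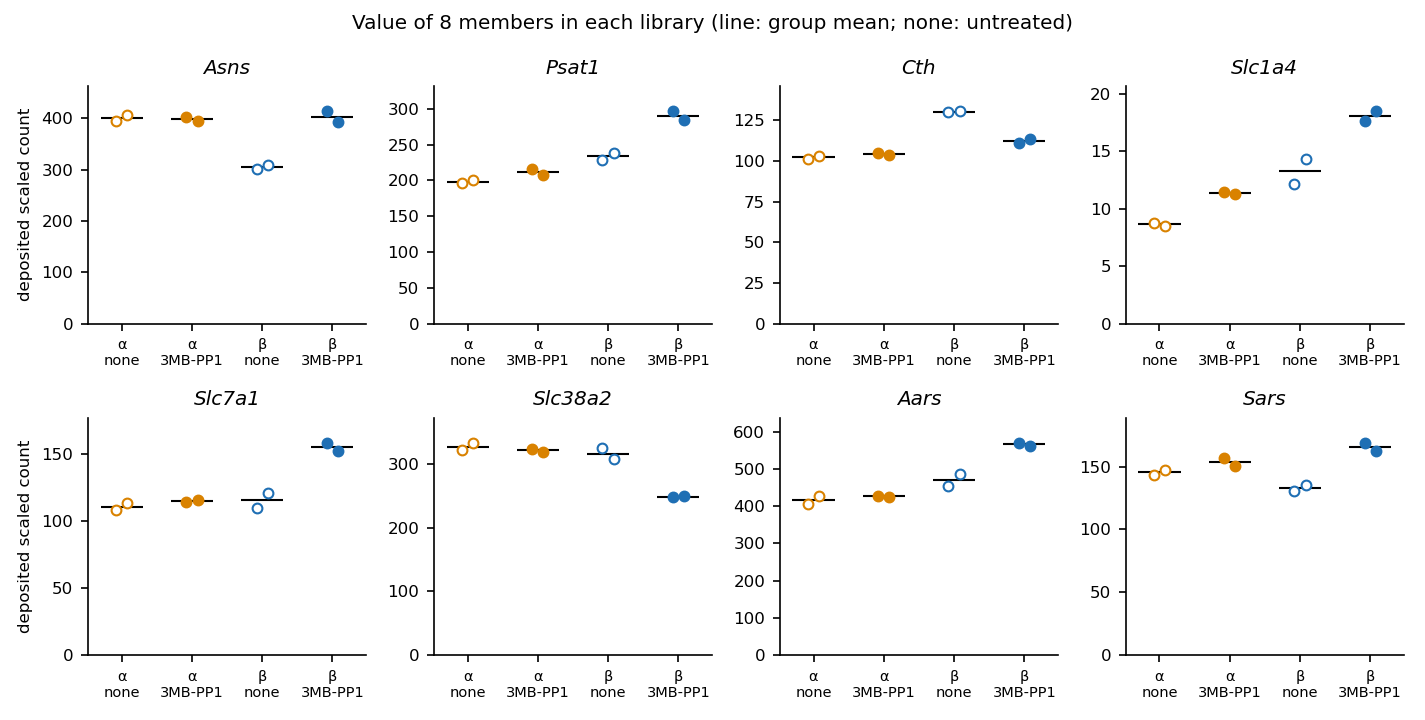
Deposited scaled count (y axis, from 0, scaled separately for each gene) of 8 members in each library (points) of the 4 groups (x axis; α and β are the GSK3α and GSK3β line, none is untreated), with the group mean as a line. Asns, Psat1, Slc7a1, Aars and Sars are higher with 3MB-PP1 in the GSK3β line, Cth and Slc38a2 are lower, and Slc1a4 is higher in both lines.

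The tRNA charging class was the most uniform of the member classes. In all 13 genes both inhibitor libraries of the GSK3β line lay above both untreated ones, beside 27.3% of all tested genes. The test was passed by 12, beside 7.49% of all tested genes that rose. These genes were chosen with results of these data known. Sars, seryl-tRNA synthetase, had 131 and 136 untreated and 169 and 162 with inhibitor (log2 0.31 ± 0.03, adjusted p = 4.32e-06). Aars had 454 and 487 untreated and 569.9 and 562 with inhibitor (log2 0.27 ± 0.03, adjusted p = 2.24e-05). Iars had 234 and 244 untreated and 291 and 280.0 with inhibitor (log2 0.26 ± 0.03, adjusted p = 1.79e-05). These 3 rose by 24.3%, 20.4% and 19.4% of their untreated means.

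Nars, asparaginyl-tRNA synthetase, had 253 and 259.7 untreated and 301 and 295 with inhibitor in the GSK3β line (log2 0.22, adjusted p = 4.18e-05). Mars, methionyl-tRNA synthetase, had 158 and 169.5 untreated and 193 and 186 with inhibitor (log2 0.21, adjusted p = 0.000404). The enzymes for threonine and tyrosine, Tars (log2 0.20) and Yars (0.20), the bifunctional enzyme for glutamate and proline, Eprs (0.17), and those for glycine, cysteine and leucine, Gars (0.14), Cars (0.13) and Lars (0.11), followed. Xpot, which exports tRNA from the nucleus and is no synthetase, rose by 0.11. Wars, for tryptophan, had 103 and 104 untreated and 112 and 109.8 with inhibitor and did not pass (log2 0.10, adjusted p = 0.0795). The calls of Cars, Lars and Xpot ended without untreated replicate 1 of the GSK3β line (adjusted p 0.0752 to 0.210), and those of Cars, Gars, Lars and Xpot without inhibitor replicate 1 (0.0647 to 0.201). The call of Lars ended without untreated replicate 2 (0.0543), and those of Lars and Xpot ended without inhibitor replicate 2 (0.241 for Lars, 0.119 for Xpot) and with the replicate number as a block (0.0540 for Lars, 0.0515 for Xpot).

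In the GSK3α line the 13 genes lay between -0.01 and 0.08 on the log2 scale and none passed. Sars had 143 and 147 untreated and 157 and 151 with inhibitor there, groups that did not overlap (adjusted p = 0.361). Aars had 405 and 428 untreated and 428 and 425 with inhibitor (log2 0.03) and Iars 258 and 264 untreated and 267 and 275 with inhibitor (log2 0.05), the first with groups that overlapped and the second with groups that did not. Over the 13 genes 12 values were positive, beside 53.6% of all genes, and for 5 both inhibitor libraries exceeded both untreated ones, beside 23.0% of all genes. Across these 13 genes the changes in the 2 lines, which share no library, had a Pearson r of 0.814, a description over genes that are not independent. The r was 0.715 over the 10 transport and 0.249 over the 14 synthesis members.

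The difference between the responses of the 2 lines was tested directly, as the change in the GSK3β line minus that in the GSK3α line. It was positive and passed for 11 members, beside 3.62% of all tested genes, and negative for 3, beside 2.9%. For 35 of the 37 members the absolute change was larger in the GSK3β line, as it was for 61.6% of all tested genes. Asns differed most (log2 0.40 ± 0.04, adjusted p = 1.39e-05), followed by Slc7a1 (0.37, adjusted p = 0.000618), Aars (0.23), Sars (0.23), Psat1 (0.22), Aldh18a1 (0.21), Iars (0.20), Got1 (0.20), Tars (0.18), Eprs (0.15) and Nars (0.15). The 3 on the other side were the members that fell in the GSK3β line, Slc38a2 (-0.32 ± 0.05, adjusted p = 0.000193), Cth (-0.25) and Slc7a3 (-0.17). Tars had 217.3 and 217.7 untreated and 221.2 and 220.4 with inhibitor in the GSK3α line. In the GSK3β line Tars had 215.1 and 222.9 untreated and 253.1 and 250.2 with inhibitor. Got1 had 208.9 and 220.9 untreated and 219.7 and 221.4 with inhibitor in the GSK3α line.

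For several members that rose in the GSK3β line a difference between the lines did not pass. These values do not show that the lines responded alike. For Slc1a4 the difference was 0.06 with a 95% interval of -0.18 to 0.30, and for Phgdh 0.01 with an interval of -0.10 to 0.13. The count of 11 was 7 without a filter on low values and 7 with the replicate number as a block, and it fell to between 3 and 7 without untreated replicate 2 (7), inhibitor replicate 1 (5) or inhibitor replicate 2 (5) of the GSK3α line and without untreated replicate 1 (6) or inhibitor replicate 1 (3) of the GSK3β line. The calls of Asns, Slc7a1, Aars, Slc38a2 and Cth held without any single library and under every alternative tried. The calls of Psat1, Aldh18a1, Got1, Slc7a3, Eprs, Iars, Nars, Sars and Tars each ended without at least 1 library, with adjusted p up to 0.308 for the synthesis members, 0.139 for Slc7a3 and 0.224 for the tRNA charging members, in each case without inhibitor replicate 1 of the GSK3β line.

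The untreated lines already differed in these genes, as they did across the table. In the untreated GSK3β line 13 members were higher and 10 lower than in the untreated GSK3α line, beside 22.3% and 25.9% of all tested genes. Libraries of the lines did not overlap for 28 members, 17 higher in the GSK3β line and 11 lower, beside 33.5% and 38.7% of all genes. Of the transporters 5 were higher and none lower (median log2 0.25), of the synthesis enzymes 6 were higher and 5 lower (0.08), and of the tRNA charging genes 2 were higher and 5 lower (-0.004). Leaving out untreated replicate 1 of the GSK3α line moved the synthesis median to 0.02 and untreated replicate 2 moved it to 0.15.

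The transporter with the largest difference was Slc7a3, with 261 and 267 in the untreated GSK3α line and 485 and 482 in the untreated GSK3β line (log2 0.87 ± 0.03, adjusted p = 7.52e-14). Slc1a4 had 8.76 and 8.51 against 12.2 and 14.3 (log2 0.56), Slc7a5 193 and 196 against 229.8 and 247 (0.29), Slc1a5 37.8 and 38.2 against 44.6 and 46.5 (0.26) and Slc7a6 37.8 and 35.98 against 42.8 and 44.6 (0.24). In each of these 5 genes both untreated libraries of the GSK3β line lay above both of the GSK3α line. Slc7a1 did not pass between the untreated lines (log2 0.06).

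Among the synthesis enzymes the transaminases stood at opposite ends. Got1 had 209 and 221 in the untreated GSK3α line and 121 and 125 in the untreated GSK3β line (log2 -0.80 ± 0.04, adjusted p = 1.48e-11), while Gpt2 had 29.3 and 29.7 against 44.5 and 47.1 (log2 0.62, adjusted p = 7.67e-09). The transsulfuration pair was split in the same way, with Cbs at 42.7 and 45.6 against 29.2 and 29.3 (log2 -0.58) and Cth higher (0.35). Phgdh had 61.0 and 61.9 against 81.9 and 85.1 (log2 0.44). Psat1 (0.24), Mthfd2 (0.30) and Mthfd1l (0.14) were also higher in the untreated GSK3β line, and Asns (-0.39), Aldh18a1 (-0.38) and Shmt1 (-0.23) were lower. Mthfd1l did not pass once untreated replicate 1 of the GSK3α line was left out (log2 0.09, adjusted p = 0.119).

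The untreated libraries of the GSK3β line enter both this comparison and its response to the inhibitor, so the values are only set side by side. For Asns the GSK3β line had 302 and 310.0 untreated and 414 and 393 with inhibitor, and the untreated GSK3α line had 394 and 407. For Aldh18a1 the same 3 groups had 49.3 and 53.1, 64.8 and 65.2 and 66.5 and 67.2. In both genes the treated GSK3β libraries stood close to the untreated GSK3α libraries. For Got1 they remained below, at 153 and 138 against 209 and 221, and for Slc7a3 they remained above, at 416 and 429.7 against 261 and 267. Psat1, Phgdh, Mthfd2, Mthfd1l, Slc1a4, Slc1a5, Slc7a5 and Aars instead were higher in the untreated GSK3β line and rose further with inhibitor. These genes thus moved away from the untreated GSK3α libraries. Cars, Iars, Lars, Mars and Sars were lower in the untreated GSK3β line and rose there, and Cth was higher and fell.

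Differences between the untreated lines were small in the tRNA charging class, from -0.14 for Cars to 0.17 for Aars on the log2 scale. Aars had 405 and 428 in the GSK3α line and 454 and 487 in the GSK3β line (adjusted p = 0.000415), and Wars 90.2 and 94.5 against 103 and 104 (log2 0.16). Cars had 165 and 173 against 152 and 155, Sars 143 and 147 against 131 and 136 (log2 -0.13) and Iars 258 and 264 against 234 and 244 (log2 -0.13), all lower in the GSK3β line, as were Mars (-0.10) and Lars (-0.09). The calls of Lars and Mars ended without untreated replicate 1 of either line (adjusted p 0.0524 to 0.255) and with median-of-ratios scaling of the libraries (0.0754 for Lars, 0.0510 for Mars). That of Lars also ended without untreated replicate 2 of the GSK3β line (0.0593), that of Sars without untreated replicate 1 of the GSK3β line (0.0517), and those of Mars and Sars without untreated replicate 2 of the GSK3α line (0.0729 for Mars, 0.0507 for Sars). Lars did not pass when these groups were fitted alone (0.0568).

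**Figure D3:**
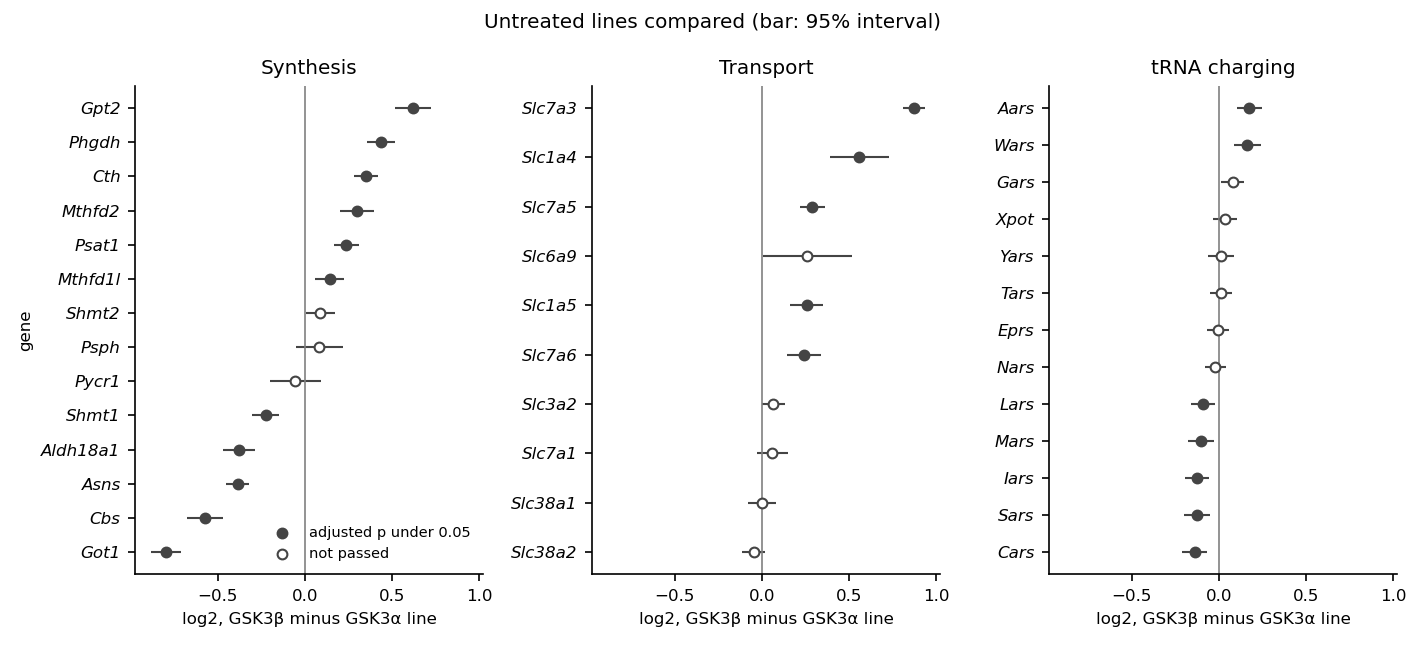
Log2 difference between the untreated lines, GSK3β minus GSK3α (x axis), of each member (y axis), by class, with bars for the unadjusted 95% interval and filled points past the adjusted threshold. Transporters lie mostly to the right of 0, synthesis enzymes spread from Got1 to Gpt2 on both sides, and tRNA charging genes keep near 0.

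The other genes of these pathways, from lists drawn up beside the members, had lower medians than the member classes in the GSK3β line. Of 11 further cytosolic synthetases and their complex partners 1 rose, Vars for valine (log2 0.12), and 10 did not pass, a share near the 7.49% of all genes that rose, with a median of 0.03 and values from -0.03 to 0.12. Those that did not pass included the enzymes for lysine, Kars (0.03), arginine, Rars (0.05), glutamine, Qars (0.04), aspartate, Dars (0.03), and histidine, Hars (0.05). The median of the 13 tRNA charging members was 0.20, and their lowest value, 0.10, was above all but Vars of these 11. The members were chosen with results of these data known, so the contrast between the lists is a description.

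The 17 mitochondrial synthetases had a median log2 change of 0.01 in the GSK3β line, where Mars2 rose (log2 0.33). In the GSK3α line Lars2 fell (log2 -0.34, adjusted p = 0.018). Beside it Gm42418 and Gm26917, which like Lars2 often collect reads of ribosomal RNA, fell by similar amounts (log2 -0.34 and -0.28), and their part in the value of Lars2 was not tested. None of the 11 further cytosolic synthetases passed in the GSK3α line, where their values ran from -0.11 to 0.06.

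Of 18 further amino acid transporters that were tested, 3 rose and 1 fell in the GSK3β line, beside 7.49% and 7.44% of all genes, with a median of 0.09. Slc1a1, a glutamate carrier, had 9.43 and 10.9 untreated and 15.2 and 13.9 with inhibitor (log2 0.48, adjusted p = 0.000531), and the lysosomal carriers Slc36a1 (0.27) and Slc38a7 (0.26) rose by less. Slc7a7, a light chain of Slc3a2 that exchanges cationic for neutral amino acids, fell in both lines. It had 103 and 107 untreated and 70.0 and 72.8 with inhibitor in the GSK3β line (log2 -0.55 ± 0.04, adjusted p = 4.4e-09) and 82.2 and 82.9 untreated and 69.6 and 69.1 with inhibitor in the GSK3α line (log2 -0.25 ± 0.04, adjusted p = 0.00187). The cystine carrier Slc7a11, a known ATF4 target, did not pass in either line (log2 0.09 and 0.21).

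Of 29 further enzymes of amino acid and folate metabolism 6 rose and 6 fell in the GSK3β line, beside the same 7.49% and 7.44%, with a median of -0.01. Bcat1, the cytosolic aminotransferase of branched-chain amino acids, had 383 and 412 untreated and 561 and 529 with inhibitor (log2 0.46, adjusted p = 5.65e-08) and its mitochondrial counterpart Bcat2 fell (-0.18). Tdh, the threonine dehydrogenase on which mouse embryonic stem cells depend, had 299 and 302 untreated and 398 and 383 with inhibitor (log2 0.38, adjusted p = 1.06e-07) and in the GSK3α line 314 and 316 untreated and 312 and 297 with inhibitor (log2 -0.05). Gpt fell in the GSK3β line (-0.39). Mat2a, which makes S-adenosylmethionine, fell in both lines (log2 -0.13 and -0.12).

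**Figure D4:**
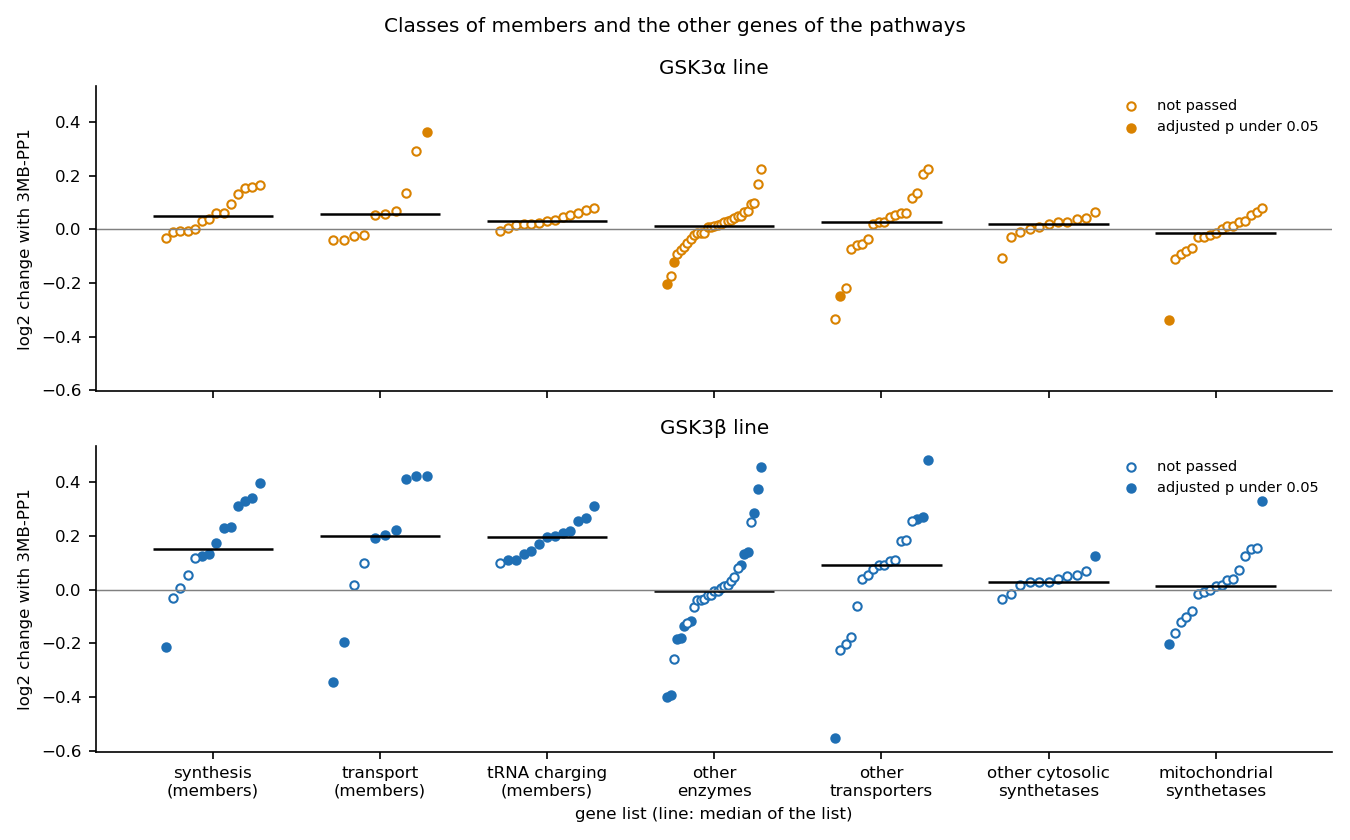
Log2 change with 3MB-PP1 (y axis) of the 3 classes of members and of 4 lists of other genes of the same pathways (x axis) in the GSK3α line (upper panel, orange) and the GSK3β line (lower panel, blue), with filled points past the adjusted threshold and the list median as a line. In the GSK3β line the medians of the member classes lie at 0.15 to 0.20, and those of the other lists between -0.01 and 0.09.

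Of 23 tested genes that sense amino acid supply or act with ATF4, 10 rose and 1 fell in the GSK3β line, beside 7.49% and 7.44% of all genes, and 3 rose in the GSK3α line, beside 0.265%, namely Atf4, Chac1 (0.65) and Trib3 (0.35). Atf4 itself had 189 and 189.9 untreated and 230.1 and 237 with inhibitor in the GSK3β line (log2 0.30 ± 0.03, adjusted p = 3.25e-06) and 199 and 211 untreated and 236 and 230.2 with inhibitor in the GSK3α line (log2 0.18 ± 0.03, adjusted p = 0.00916). The difference between the lines in the change of Atf4 RNA did not pass (log2 0.12, adjusted p = 0.146), though its unadjusted 95% interval ran from 0.02 to 0.22. ATF4 protein was not measured. Nupr1, a stress-induced regulator, had 7.11 and 6.38 untreated and 12.5 and 11.1 with inhibitor in the GSK3β line (log2 0.72) and 4.40 and 5.06 untreated and 5.30 and 4.78 with inhibitor in the GSK3α line (0.08). Chac1 (1.0), Ddit3 (0.78), Atf3 (0.64) and Trib3 (0.56) rose in the GSK3β line as well. The difference between the lines passed for Nupr1 and Ddit3 and did not pass for Chac1, Atf3 and Trib3. Its unadjusted 95% interval ran from 0.09 to 0.61 for Chac1, 0.04 to 0.75 for Atf3 and 0.02 to 0.38 for Trib3. Such values do not show that the lines responded alike. The sensor kinase GCN2, encoded by Eif2ak4, did not pass in the GSK3β line (log2 0.03), while its activator Gcn1l1 rose (0.22). Of this list Sesn2, a leucine sensor and known ATF4 target, did not pass (0.02), and Ddit4, an inhibitor of mTORC1, fell (-0.18).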

How the data were processed

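RNA of 8 libraries was sequenced, 2 in each of 4 groups. Reads were aligned with TopHat2 and processed with Partek on mm10, per the submitters' processing notes; versions, gene annotation, strand setting, filters and scaling method are not given in the sources used here. The deposited signal values are scaled counts per gene as the authors left them, not raw counts: the third quartile over genes with values was equal in all libraries to within 0.0548%. Of 48321 genes listed 17488 had values, each in all 8 libraries, and 13959 had a mean of at least 1 and were tested. Reads per library were estimated as the sum of values divided by the smallest value, taken as 1 read.

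The test was limma-trend (limma 3.58.1, R 4.3.3) on log2(value + 1), which understates changes of low genes, with 1 mean per group and 4 residual degrees of freedom, two-sided, Benjamini-Hochberg adjustment over all tested genes in each of 4 comparisons and a threshold of 0.05. It replaced the count test that raw counts would have had. The script was tested on simulated data in which the planted changes were larger than any change of a member with inhibitor. Recovery of changes as small as those of the members was not tested. Alternatives changed the added constant, the filter, the scaling, the groups fitted and the replicate block, and left out each library. Members and lists were chosen with earlier results of these data known. Values in the libraries of a comparison are given for members that passed and were among the 5 largest of their class in it. Of each other list up to 4 genes past the threshold were to be named; genes named beyond these, such as Slc7a11 and Kars, were chosen after their values were seen. Promoters are from RefSeq, GRCm38.p6. Results for some genes of the other lists are not reported here.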

Additional observations from a re-analysis of the deposited data

Results flagged for a closer look

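The response to 3MB-PP1 differed between the lines, by the test of the difference itself (limma, adjusted p under the threshold of 0.05), for 14 members. As the change in the GSK3β line minus that in the GSK3α line on the log2 scale, the values were 0.40 for Asns, 0.22 for Psat1, 0.21 for Aldh18a1, 0.20 for Got1, -0.25 for Cth, 0.37 for Slc7a1, -0.17 for Slc7a3, -0.32 for Slc38a2, 0.23 for Aars, 0.15 for Eprs, 0.20 for Iars, 0.15 for Nars, 0.23 for Sars and 0.18 for Tars. Groups of 2 libraries are too small for a test of single libraries that stand apart.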

How the results depend on the processing

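In the GSK3β line the count of 27 members higher and 3 lower became 18 to 27 higher and 3 lower when 1 library was left out, and 21 of the 30 calls held without any library and under every other alternative. In the GSK3α line the count of 1 member higher became 2 with a minimum mean of 10 and ranged from 0 to 2 when 1 library was left out. The count of 11 members with a larger change in the GSK3β line became 7 without a filter and 7 with the replicate block, and ranged from 3 to 14 when 1 library was left out. Between the untreated lines, the transport median moved from 0.25 to 0.18 with an added constant of 5, and the tRNA charging median from -0.004 to 0.014 with median-of-ratios scaling, a change of sign near 0. When 1 library was left out, the synthesis median ran from 0.083 to 0.17 for the difference between responses and from 0.019 to 0.15 between the untreated lines. The transport median ran from 0.16 to 0.23 in the GSK3β line, 0.058 to 0.15 for the difference and 0.17 to 0.28 between untreated lines. The tRNA charging median ran from 0.021 to 0.065 in the GSK3α line, 0.16 to 0.23 in the GSK3β line, 0.11 to 0.17 for the difference and -0.030 to -0.0016 between untreated lines. No pairing of libraries by replicate number was visible, as deviations of same-numbered libraries of a line correlated at -0.0443 and -0.0447. This does not settle whether such libraries were handled together. A block on the number ended 2 calls in the GSK3β line and 4 of the difference between responses. No called member changed direction in any of the 2179 results of single members under an alternative; 40 values not past the threshold changed sign. The cause of these changes was not tested. With 2 libraries a group, the median SE of a log2 change was 0.0634 and that of the difference 0.0897, which limits small changes.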
